A study of Arabidopsis thaliana with 9 samples.

Results

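Expression of 10 nuclear genes for enzymes of the Calvin cycle was described across 9 RNA-seq libraries of whole Arabidopsis thaliana seedlings. The genes were taken by locus from the 33518 genes of the deposited tables: the Rubisco activase gene RCA, the glyceraldehyde-3-phosphate dehydrogenase genes GAPA1, GAPA2 and GAPB, the aldolase genes FBA1 and FBA2, the chloroplast fructose-1,6-bisphosphatase gene HCEF1, the sedoheptulose-1,7-bisphosphatase gene SBPASE, the transketolase gene TKL1 and the phosphoribulokinase gene PRK. Wild-type Col-0 (WT), aba2-1 and p5cs1-4 seedlings were grown without sugar under continuous light. The aba2-1 line is a point mutant of ABA2, a gene of abscisic acid (ABA) synthesis, and p5cs1-4 is an insertion mutant of P5CS1, a gene of proline synthesis. At an age of 7 days they were moved to fresh control medium at -0.25 MPa or to medium with polyethylene glycol at -1.2 MPa, which lowers the water potential, and were collected after 96 h. The release seedlings went from 96 h of the low water potential to control medium for 10 h. RNA of 3 experiments was pooled into 1 library for each of the 9 combinations of genotype and treatment, so a difference between 2 libraries has no replicate check, and the intervals given for it cover counting error only.

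The Calvin cycle fixes carbon dioxide in the chloroplast stroma with ATP and NADPH from the light reactions. Rubisco, kept active by Rubisco activase, adds carbon dioxide to ribulose-1,5-bisphosphate, the product is reduced to triose phosphate, and aldolases, bisphosphatases, transketolase and phosphoribulokinase rebuild the acceptor. Several of these enzymes are switched on in the light through thioredoxins. The 10 genes described here are encoded in the nucleus, expressed mostly in green tissue, and belong to the most strongly transcribed genes of a leaf.

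The 250 bases before the annotated gene start are shown for RCA, the member with the most reads, and for PRK and HCEF1, the members whose windows hold G-box letters, the recognition sequence of bZIP and bHLH factors. The windows lie at chr2:16573693-16573942 on the minus strand, chr1:11531949-11532198 on the plus strand and chr3:20016587-20016836 on the plus strand of TAIR10.1, the RefSeq assembly, and are written 5′ to 3′ on the strand of the gene with the searched letters in capitals.
RCA: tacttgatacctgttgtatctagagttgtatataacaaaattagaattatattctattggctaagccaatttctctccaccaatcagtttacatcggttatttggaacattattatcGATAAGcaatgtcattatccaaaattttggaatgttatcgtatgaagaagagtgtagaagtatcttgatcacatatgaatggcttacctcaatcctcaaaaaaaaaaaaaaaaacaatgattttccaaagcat
PRK: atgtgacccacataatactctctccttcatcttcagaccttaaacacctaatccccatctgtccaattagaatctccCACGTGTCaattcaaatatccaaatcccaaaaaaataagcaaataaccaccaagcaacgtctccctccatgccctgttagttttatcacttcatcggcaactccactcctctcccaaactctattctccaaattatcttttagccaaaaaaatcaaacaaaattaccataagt
HCEF1: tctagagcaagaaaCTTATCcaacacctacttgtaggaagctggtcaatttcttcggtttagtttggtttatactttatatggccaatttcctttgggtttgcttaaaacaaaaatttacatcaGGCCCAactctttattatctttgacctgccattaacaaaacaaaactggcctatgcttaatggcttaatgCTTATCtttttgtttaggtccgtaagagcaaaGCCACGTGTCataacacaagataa

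Letters were searched on both strands in the windows of 26641 genes. The G-box CACGTG stood before PRK and HCEF1, and before 6.6% of all genes. Before PRK it began 173 bases ahead of the gene start and shared letters with ACGTGTC, a form of the ABA-responsive element (ABRE) that 3.75% of all windows held. Before HCEF1 it began 22 bases ahead of the start and overlapped both ACGTGTC and, read on the other strand, ACGTGGC, which 3.41% of windows held. The I-box GATAAG, known from promoters of light-regulated genes, was found before RCA and at 2 places before HCEF1, and before 12.24% of all genes. GGTTAA (GT-1) was found before TKL1 alone of the members and before 14.66% of all genes. GGCCCA (site II) was found before SBPASE, HCEF1 and TKL1 and before 13.89% of all genes. CCGAC and the longer form GCCGAC, versions of the dehydration-responsive element, and AAAATATCT, the evening element, were in the window of none of the members, against 11.91%, 2.57% and 2.4% of all windows. These matches describe the letters of the windows and are not measured binding sites.

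The libraries held between 4898426 and 18273148 reads on genes. The labels of the low water potential libraries went against 2 known marker genes. PRODH1, a proline breakdown gene known to rise after stress release, stood at 188 CPM, reads scaled to a common library size, in the WT library labelled stress and at 25.5 CPM in the one labelled release. RAB18, a dehydrin gene known to rise with drought and ABA, stood at 13.9 CPM and 4950.3 CPM in the same libraries, and both genes differed in the same direction in all 3 genotypes. The libraries are therefore called "labelled stress" and "labelled release" throughout, after the deposited labels. Exchanging the labels would exchange the names of the contrasts without changing the size of a value. Labelled release against labelled stress would change sign. P5CS1, the gene disrupted in p5cs1-4, was at 125, 174 and 1199 CPM in the p5cs1-4 control, labelled stress and labelled release libraries, and at 195, 74.1 and 3918 CPM in those of WT, so its gene count alone does not mark the mutant. ABA2 stood between 15.6 and 22.0 CPM in all 9 libraries, and a point mutation need not change its level. The aba2-1 control also stood apart. The median of the 7 treatment markers, genes known to respond to low water potential, ABA or stress release, was 252 CPM there, against 5.15 and 41.3 CPM in aba2-1 labelled stress and labelled release, and 31.4 and 22.4 CPM in the other controls. Against the WT control 5 of 7 were at least 2-fold higher, where 8.13% of genes were. LTP4, a lipid transfer protein gene, stood at 478 CPM in the aba2-1 control and 3.73 CPM in the WT control. Of the 7, 6 were at least 2-fold lower in aba2-1 labelled stress than in its control, against 3.57% of genes, and 5 in its labelled release, against 5.62%. Each comparison with the aba2-1 control and the interaction term rest on this library, and its part in them was not tested beyond the fits that leave it out.

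By RPKM, a level per gene length, the 10 genes ranked between 3 and 776 of all genes in every library. Together they took 2.17% of all reads in the control of WT, 1.80% in its labelled stress library and 0.831% in its labelled release library. The same shares were 1.85%, 1.25% and 0.639% in p5cs1-4, and 1.38%, 0.899% and 0.930% in aba2-1. In WT and p5cs1-4 the share was highest in the control and lowest in labelled release, whereas in aba2-1 the labelled stress and labelled release libraries lay close together. Exact 95% binomial intervals of these shares were narrow, such as 0.825% to 0.837% in WT labelled release. Leaving out RCA, which held between 30.9% and 47.4% of the members' reads, the summed level of the other genes was 13026 CPM in the WT control and 5499 CPM in WT labelled release. In whole seedlings, fewer green cells and less of these transcripts per cell cannot be told apart. For 9 of the 10 genes the lowest library was p5cs1-4 labelled release, and FBA1 was lowest in aba2-1 labelled stress. The highest library was the WT control for every member but PRK, which was highest in the p5cs1-4 control.

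**Figure D1:**
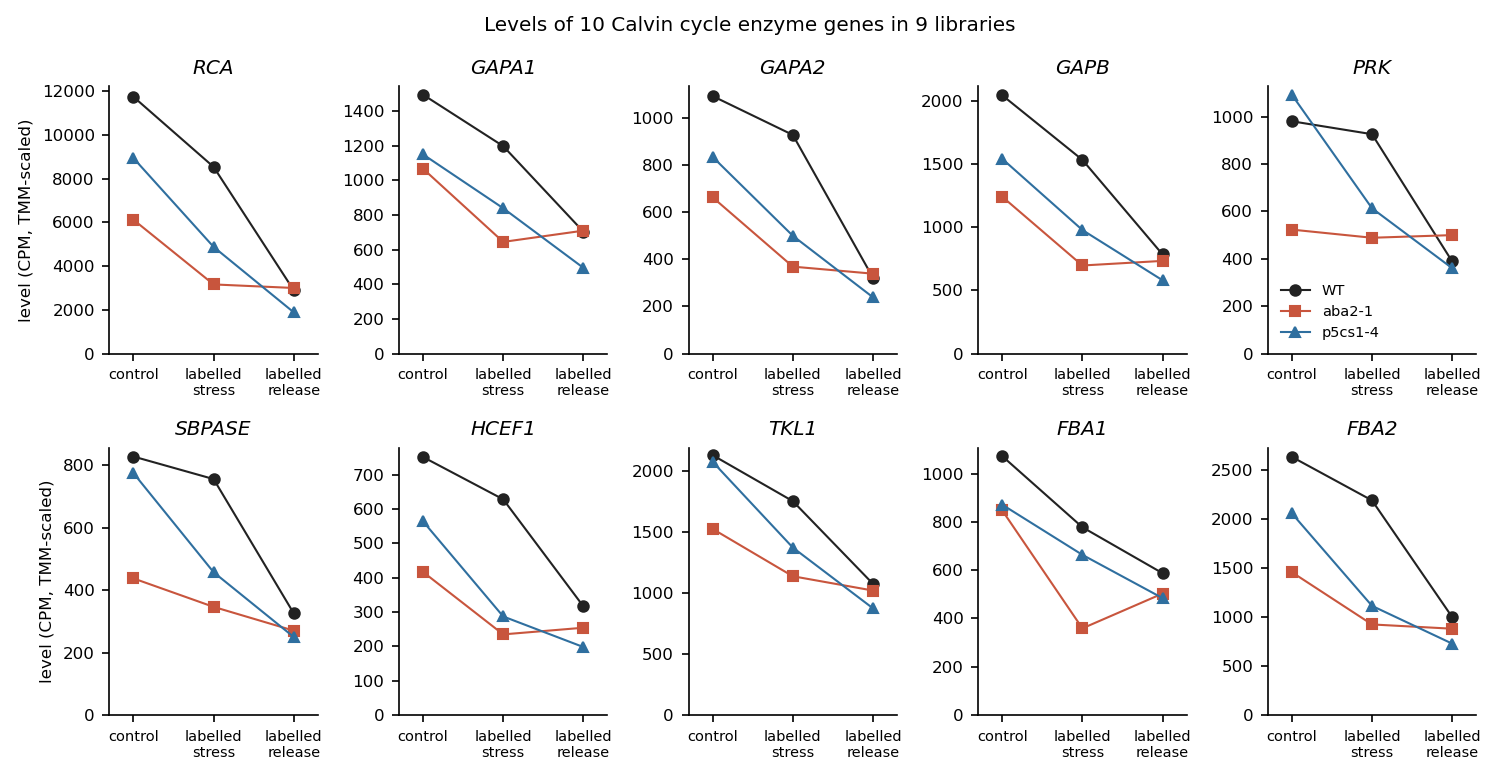
Level of each of the 10 genes in the 9 libraries as TMM-scaled CPM on a linear axis from 0, with 1 panel per gene, 1 point per library and lines that join the treatments of a genotype. The labelled release point is below the control point of its genotype in every panel, and RCA spans 1881 to 11739 CPM.

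RCA encodes Rubisco activase, which removes inhibitory sugar phosphates from Rubisco (AT2G39730, chr2:16570746-16573692, minus strand). In the order control, labelled stress and labelled release, RCA stood at 11739, 8532 and 2887 CPM for WT, 6118, 3159 and 2996 CPM for aba2-1, and 8936, 4875 and 1881 CPM for p5cs1-4. The WT control was the highest and p5cs1-4 labelled release the lowest, 6.24-fold apart, and all 3 labelled release libraries lay below all 3 controls. In WT, RCA was 4.07-fold lower (4.00 to 4.13) in labelled release than in the control, where brackets hold the exact 95% interval of counting error, and in p5cs1-4 it was 4.75-fold lower (4.69 to 4.81). In aba2-1 it was 2.04-fold lower (2.01 to 2.07), from a control level that was already 1.92-fold lower (1.89 to 1.95) than in WT. On the RPKM scale, which divides reads by gene length and library total, RCA ranked from 3 to 43 among all genes, with 5077 RPKM in the WT control and 961 RPKM in p5cs1-4 labelled release. Its 5077 RPKM compare with 1464 RPKM for FBA2, the next most abundant member per length in the WT control.

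GAPA1 (AT3G26650, chr3:9794862-9797045, plus strand), GAPA2 (AT1G12900, chr1:4392438-4394454, minus strand) and GAPB (AT1G42970, chr1:16127353-16129895, plus strand) encode the A and B subunits of the chloroplast glyceraldehyde-3-phosphate dehydrogenase, the NADPH-using reduction step. In the same order, GAPA1 stood at 1494, 1197 and 703 CPM for WT, 1067, 644 and 709 CPM for aba2-1, and 1149, 838 and 494 CPM for p5cs1-4. All 3 labelled release values of GAPA1 were below the 3 controls, but the aba2-1 labelled stress value was below 2 of the 3 labelled release values. GAPA2 stood at 1094, 929 and 322 CPM for WT, 664, 369 and 339 CPM for aba2-1, and 836, 501 and 239 CPM for p5cs1-4. It was the more variable A subunit gene, 4.58-fold between its highest and lowest library against 3.02-fold for GAPA1. GAPB stood at 2045, 1533 and 784 CPM for WT, 1242, 697 and 733 CPM for aba2-1, and 1542, 978 and 579.6 CPM for p5cs1-4. In labelled release GAPB was 2.61-fold lower (2.53 to 2.69) than the control in WT, 2.66-fold lower (2.60 to 2.73) in p5cs1-4 and 1.69-fold lower (1.64 to 1.75) in aba2-1, where labelled stress was the lowest of its libraries.

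The coding sequences of GAPA1 and GAPA2 were 85.8% identical over aligned bases, those of GAPA1 and GAPB 73.4% and those of GAPA2 and GAPB 71.6%. For each of the 10 members at most 0.00122 of the reads, as a fraction, also mapped elsewhere in any library, so the copies were counted apart. The ratio of GAPA1 to GAPA2 in RPKM was 1.33, 1.26 and 2.13 for WT, 1.57, 1.70 and 2.04 for aba2-1 and 1.34, 1.63 and 2.02 for p5cs1-4, again in the order control, labelled stress and labelled release. In every genotype it was highest in labelled release, so GAPA2 was lower there relative to GAPA1. The ratio of GAPA1 plus GAPA2 to GAPB stayed between 1.47 and 1.69 in the 9 libraries.

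The aldolases FBA1 (AT2G21330, chr2:9128122-9130619, minus strand) and FBA2 (AT4G38970, chr4:18163496-18166008, minus strand) are chloroplast enzymes that join triose phosphates and thereby start the regeneration of the acceptor. FBA2 stood at 2633, 2189 and 999 CPM for WT, 1457, 924 and 880.3 CPM for aba2-1, and 2057, 1113 and 728 CPM for p5cs1-4. Its labelled release levels were below every control, as for the other members and for 15.0% of genes with a mean of at least 1 CPM. FBA1 stood at 1073, 778 and 587 CPM for WT, 848, 359 and 503 CPM for aba2-1, and 871, 664 and 484 CPM for p5cs1-4. FBA1 differed from the other 9 genes in its lowest library, aba2-1 labelled stress, where it was 2.36-fold lower (2.26 to 2.47) than in the aba2-1 control. It was also the only member whose 3 labelled stress levels were all below the 3 controls. That held for 3.80% of genes with a mean of at least 1 CPM. FBA1 and FBA2 were 84.1% identical in coding sequence, and their ratio was not constant. FBA2 to FBA1 in RPKM was 2.64, 3.03 and 1.83 for WT, 1.85, 2.77 and 1.88 for aba2-1 and 2.54, 1.81 and 1.62 for p5cs1-4. The highest value in WT and in aba2-1 was in labelled stress, and in p5cs1-4 it was in the control.

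HCEF1 (AT3G54050, chr3:20016837-20018822, plus strand) and SBPASE (AT3G55800, chr3:20709294-20711640, plus strand) encode the bisphosphatases that make the regeneration irreversible. HCEF1 stood at 752, 628 and 316 CPM for WT, 417, 235 and 254 CPM for aba2-1, and 564, 287 and 198 CPM for p5cs1-4. It was lowest of its genotype in labelled release in WT and p5cs1-4 and in labelled stress in aba2-1. SBPASE stood at 829, 756 and 326 CPM for WT, 438, 347 and 270.3 CPM for aba2-1, and 775, 458 and 249.9 CPM for p5cs1-4. Its labelled release levels lay below all control and all labelled stress levels, a separation shared by RCA, GAPA2 and TKL1. Of the genes with a mean of at least 1 CPM, 15.0% had labelled release levels below all controls. The share below all labelled stress levels was also 15.0%. The coding sequences of SBPASE and HCEF1 were 59.9% identical, and the ratio of their RPKM ran from 0.965 to 1.496. HCEF1 gave the lowest member ratio between p5cs1-4 and WT, -1.13 on the log2 scale in labelled stress.

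TKL1 (AT3G60750, chr3:22453668-22457458, plus strand) encodes the plastid transketolase, which passes carbon units between sugar phosphates, and PRK (AT1G32060, chr1:11532199-11534639, plus strand) encodes phosphoribulokinase, which makes ribulose-1,5-bisphosphate. TKL1 stood at 2127, 1750.4 and 1073 CPM for WT, 1523, 1136 and 1019 CPM for aba2-1, and 2072, 1371 and 873 CPM for p5cs1-4. It had the smallest spread of the 10 genes, 2.44-fold between the WT control and p5cs1-4 labelled release. PRK stood at 981, 926 and 389 CPM for WT, 523, 489 and 499.9 CPM for aba2-1, and 1093, 613 and 360.2 CPM for p5cs1-4. In aba2-1 the 3 PRK libraries lay within a narrow range, and labelled release was 1.05-fold lower (1.00 to 1.09) than the control. In WT the same difference was 2.52-fold lower (2.41 to 2.64) and in p5cs1-4 it was 3.03-fold lower (2.94 to 3.13). RCA to PRK in RPKM was 9.52, 7.33 and 5.91 for WT, 9.30, 5.14 and 4.77 for aba2-1 and 6.50, 6.32 and 4.15 for p5cs1-4, lowest in labelled release in each genotype.

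**Figure D2:**
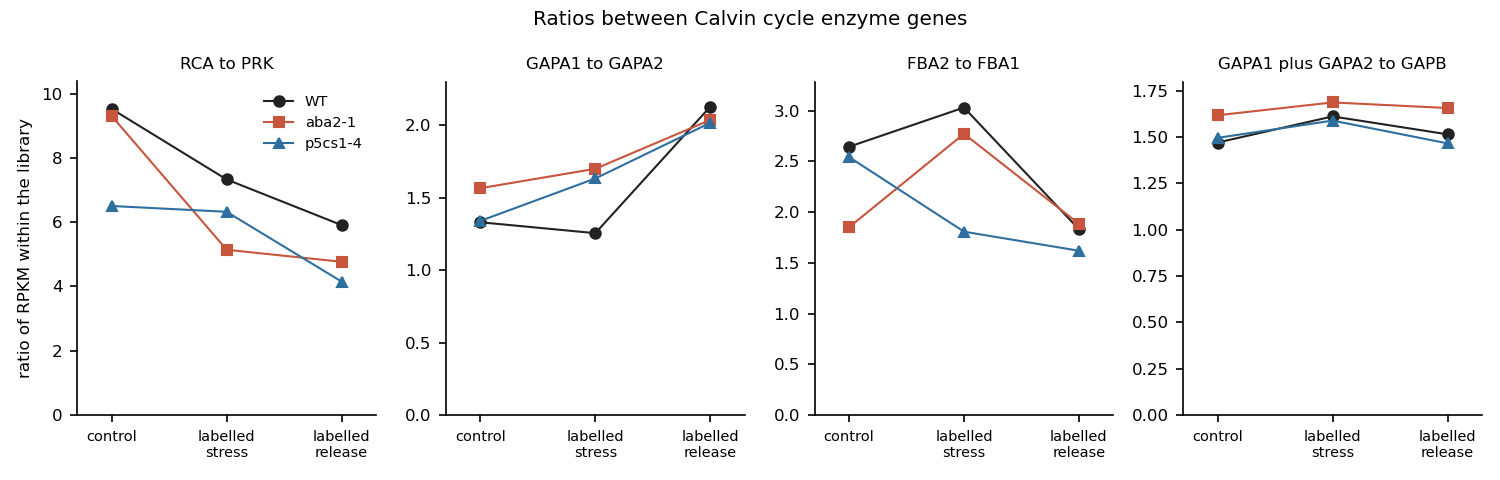
Ratio of RPKM between members within each of the 9 libraries, on axes from 0, with 1 point per library and lines that join the treatments of a genotype. GAPA1 to GAPA2 is highest in labelled release in all 3 genotypes, at 2.13 in WT, 2.04 in aba2-1 and 2.02 in p5cs1-4.

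Within each genotype the treatments were compared by the log2 ratio of CPM + 1, and a gene at least 2-fold apart with at least 5 CPM in either library was counted. In WT labelled release 8 of the 10 genes were at least 2-fold below the control, all but TKL1 and FBA1, while 14.0% of the genes past the same floor were that low. The member log2 ratios ran from -2.02 (RCA) to -0.87 (FBA1) with a median of -1.34, where the median of all genes was 0.00. In p5cs1-4 the count was 9 of 10, all but FBA1, against 11.8% of genes, with a member median of -1.50. In aba2-1 the count was 1 of 10, RCA, against 5.62% of genes, with a member median of -0.72 and a range from -1.03 to -0.07. All 10 members were lower in labelled release than in the control in each genotype, except PRK in aba2-1 when library totals or deposited RPKM replaced TMM scaling.

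Labelled stress against the control gave smaller ratios in WT. There 0 of 10 members were 2-fold lower, against 4.09% of genes, and the member median was -0.27, from -0.46 (FBA1) to -0.08 (PRK). In p5cs1-4 the count was also 0 of 10, against 5.84% of genes, with a median of -0.75 and a range from -0.97 (HCEF1) to -0.39 (FBA1). In aba2-1 it was 1 of 10, FBA1, against 3.57% of genes, with a median of -0.78 and a range from -1.24 to -0.10 (PRK). Labelled release against labelled stress gave 5 of 10 members lower in WT, namely RCA, GAPA2, PRK, SBPASE and FBA2, against 11.6% of genes. In p5cs1-4 it gave 2 of 10, RCA and GAPA2, against 6.21%. In aba2-1 it gave 0 of 10, against 5.64%, and the 10 log2 ratios lay on both sides of 0, from -0.36 (SBPASE) to 0.49 (FBA1). The 3 treatment comparisons of a genotype share libraries and are not independent of each other.

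**Figure D3:**
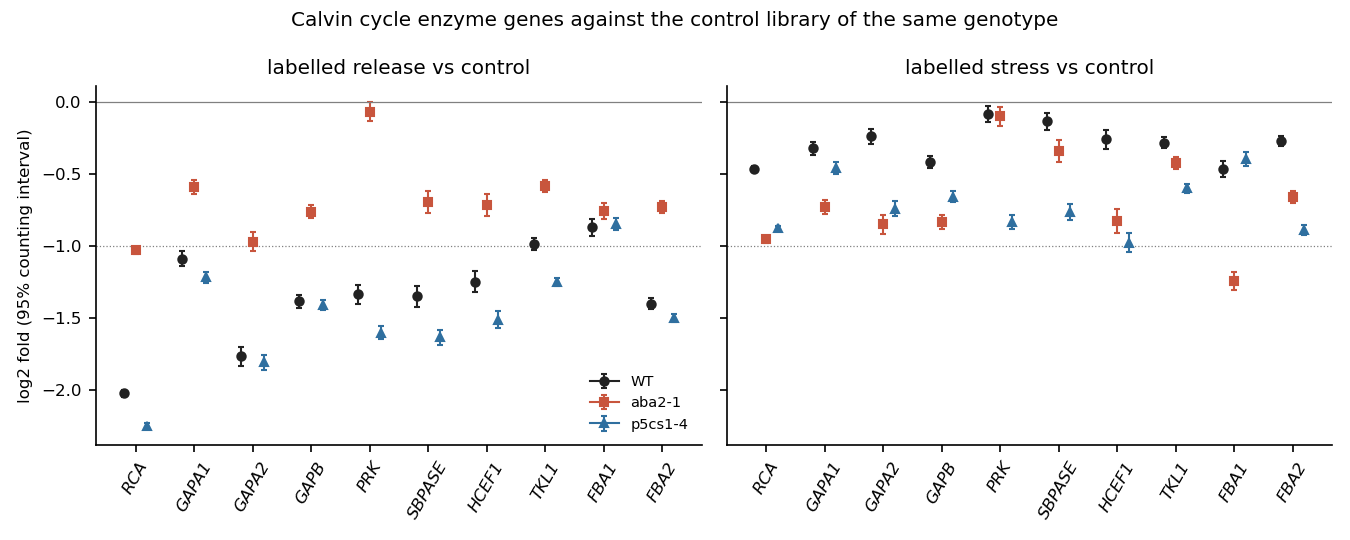
Log2 folds of CPM of the 10 genes against the control library of the same genotype, for labelled release on the left and labelled stress on the right, with 1 point per gene and genotype, bars for the exact 95% interval of counting error and a dotted line at 2-fold lower. In labelled release 8 WT points and 9 p5cs1-4 points lie below that line, and of the aba2-1 points RCA alone does.

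The mutants were then set against WT within each treatment. On control plates all 10 genes were lower in aba2-1 than in WT, with log2 ratios from -0.94 (RCA) to -0.34 (FBA1), and 0 of 10 reached 2-fold, against 9.48% of genes. In labelled stress 7 of 10 were at least 2-fold lower in aba2-1, all but GAPA1, PRK and TKL1, against 6.49% of genes, with a median of -1.13. In labelled release 0 of 10 were 2-fold lower, against 5.27% of genes, and the median was -0.09. There 6 of the 10 ratios were below 0, or 3 of 10 under library totals, so no direction can be given. RCA for example stood at 2887 CPM in WT and 2996 CPM in aba2-1 in that treatment.

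For p5cs1-4 against WT on control plates the median was -0.37, with 0 of 10 members 2-fold lower, against 2.69% of genes. PRK was the exception in direction, at 0.16, while 9 of 10 were below 0 with TMM scaling and 8 of 10 with library totals. In labelled stress 1 of 10, HCEF1, was 2-fold lower, against 6.53% of genes, with a member median of -0.69. In labelled release 0 of 10 were 2-fold lower, against 1.33% of genes, with a median of -0.43 and all 10 ratios below 0. Both mutants were set against the same WT libraries, so these comparisons share them.

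Scaling moved these ratios together. With library totals in place of TMM factors the median of all genes shifted by up to 0.22 on the log2 scale, and the share of lower genes among all genes 2-fold apart in WT labelled release against control went from 52.5% to 40.6%. The same share in aba2-1 went from 55.2% to 30.4%, and in p5cs1-4 from 58.4% to 46.0%. The 2-fold lower members of that contrast were then 7 in WT, 0 in aba2-1 and 9 in p5cs1-4, against 11.0%, 3.51% and 9.31% of all genes past the floor. Of the 7 members 2-fold lower in aba2-1 than in WT in labelled stress, the count with library totals was 4, against 4.03%.

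A model with treatment and genotype as additive terms, fitted to all 19600 genes with a mean of at least 1 CPM (edgeR quasi-likelihood test, Benjamini-Hochberg adjusted p), used the 3 genotypes as the measure of spread. Over them, 6 of the 10 genes fell in labelled release against control, where 3.94% of all tested genes did. RCA fell by 1.73 on the log2 scale (SE 0.39, adjusted p = 0.0496). The log2 fold of GAPA2 was -1.48 (SE 0.29, adjusted p = 0.0356), that of SBPASE -1.22 (SE 0.24, adjusted p = 0.0367) and that of FBA2 -1.19 (SE 0.27, adjusted p = 0.0499). GAPB was at -1.17 (SE 0.26, adjusted p = 0.0463) and HCEF1 at -1.15 (SE 0.25, adjusted p = 0.0458). The other 4 had values below 0 that did not pass, with PRK at -0.99 (SE 0.33, adjusted p = 0.11), GAPA1 at -0.95 (SE 0.24, adjusted p = 0.0613), TKL1 at -0.93 (SE 0.23, adjusted p = 0.0577) and FBA1 at -0.82 (SE 0.24, adjusted p = 0.0816). The median of the 10 was -1.16, against 0.02 over all tested genes.

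At an unadjusted p under 0.05, 10 of 10 were lower, against 15.1% of genes, and DESeq2 called 10 of 10, against 10.2%. Without the aba2-1 libraries 10 of 10 were called lower, against 11.8% of genes. In every member the 3 labelled release libraries lay below the 3 controls, which held for 15.0% of tested genes. The adjusted p of the 6 lie near the threshold, and with library totals, or with limma on RPKM, GAPA2 and SBPASE alone passed, against 2.54% and 3.10% of genes called lower. Libraries were also left out singly. Without the aba2-1 control 8 of 10 were called lower, all but GAPA1 and FBA1, against 8.88% of genes, and without aba2-1 labelled release 10 of 10, against 9.26%. Without WT labelled stress the count was 1 (GAPA2), against 1.66%. It was 0 without aba2-1 labelled stress or p5cs1-4 labelled stress, where 1.02% and 0.971% of genes were called lower. It was also 0 without the WT control, WT labelled release, the p5cs1-4 control or p5cs1-4 labelled release, where at most 0.00511% of genes were called lower.

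In the same model 0 of 10 members passed for labelled stress against control, where 0% of genes did. The member median was -0.59, and 3 of 10 (GAPB, FBA1 and HCEF1) were lower at an unadjusted p under 0.05, against 4.63% of genes, and DESeq2 called 0, against 0.194%. Only FBA1 had its 3 labelled stress libraries below the 3 controls, against 3.80% of genes. Labelled release against labelled stress gave 0 of 10, where 2.19% of genes were called lower, with a median of -0.57 and a smallest adjusted p of 0.0971 (SBPASE). There 3 of 10 (RCA, GAPA2 and SBPASE) were lower at an unadjusted p under 0.05, against 12.7%, and the same 3 were called by DESeq2, against 7.47%. RCA, GAPA2, SBPASE and TKL1 had all 3 labelled release libraries below all 3 of labelled stress, against 15.0% of genes. Without aba2-1, or without its labelled release library alone, RCA, GAPA2, GAPB, PRK and SBPASE passed as lower, against 5.58% and 6.28% of genes. Without the aba2-1 control, 0 of 10 passed in either contrast. That count cannot be read as a result about the members, since the share of all genes is not given for it.

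Between genotypes, with the treatments as the measure of spread, 0 of 10 members passed for aba2-1 against WT, where 0% of genes were called lower. Their median log2 fold was -0.64. At an unadjusted p under 0.05, 4 of 10 (GAPB, HCEF1, SBPASE and FBA2) were lower, against 7.37%, and DESeq2 called HCEF1 alone, against 1.46%. Without the aba2-1 control the count was also 0 of 10, but the share of all genes is not given for it, so it does not single out the members. For p5cs1-4 against WT 0 of 10 passed, against 0% of genes, with a median of -0.48. HCEF1 was lower at an unadjusted p under 0.05, against 5.25% of genes, and DESeq2 called 0, against 0.408%.

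Whether labelled release acted differently in aba2-1 was tested with an interaction term that sets the treatment difference in aba2-1 against that shared by WT and p5cs1-4, with 2 residual degrees of freedom. All 10 coefficients were above 0, that is, the labelled release level was less far below the control in aba2-1, with a median of 0.70, and 0 of 10 passed, where 0.0357% of genes passed as higher. PRK had the highest coefficient, 1.41 (SE 0.41, adjusted p = 0.152), followed by RCA at 1.11 (SE 0.44, adjusted p = 0.253). Both were past an unadjusted p of 0.05, where 9.00% of genes were and had a coefficient above 0, and DESeq2 called PRK alone, against 2.07%. Without the labelled stress treatment, or without its WT or p5cs1-4 library alone, PRK, RCA, GAPA2 and SBPASE passed, but the share of genes passing as higher was then 7.17%, 7.29% and 7.47%. Without aba2-1 labelled stress 0 of 10 passed, against 0.0868%, and without the aba2-1 control the term cannot be estimated. For labelled stress against control 0 of 10 passed, against 0.00510% of genes called lower. FBA1 was at -0.81 (SE 0.34, adjusted p = 0.654) there, the only member past an unadjusted p of 0.05, where 3.51% of genes were and had a coefficient below 0, and DESeq2 called 0, against 0.229%.

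Further genes of the cycle and its surroundings were read from the additive model. Of 12 further Calvin cycle genes, 5 fell in labelled release against control, against 3.94% of all tested genes, with a list median of -0.94. They were RBCS1B (log2 fold -2.43, SE 0.37, adjusted p = 0.0222) and RBCS1A (log2 fold -1.68, SE 0.34, adjusted p = 0.0392) for the Rubisco small subunit, RPI3 (log2 fold -1.22, SE 0.25, adjusted p = 0.0376) for a ribose-5-phosphate isomerase, and PGK1 (log2 fold -0.97, SE 0.21, adjusted p = 0.0454) and PGK2 (log2 fold -0.91, SE 0.14, adjusted p = 0.0238) for phosphoglycerate kinases. RBCS1B is uncertain, since up to 0.387 of its reads, as a fraction, mapped to several places. At an unadjusted p under 0.05, 8 of the 12 were lower, against 15.1% of genes, and DESeq2 called 8, against 10.2%. FBA3, the third plastid aldolase gene, was at 0.11 (SE 0.27, adjusted p = 0.812). Of the 3 genes for CP12, the small protein that ties PRK and GAPDH into an inactive complex in the dark, CP12-2 fell (log2 fold -1.46, SE 0.30, adjusted p = 0.0397). At an unadjusted p under 0.05, 1 of the 3 was lower, and DESeq2 called 1.

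Among 10 Rubisco assembly factors 4 fell, all parts of the chloroplast chaperonin or its co-chaperonin: CPN60B2 (log2 fold -1.44, SE 0.16, adjusted p = 0.0147), CPN60B1 (log2 fold -1.32, SE 0.19, adjusted p = 0.0213), CPN60A1 (log2 fold -1.06, SE 0.17, adjusted p = 0.0236) and CPN20 (log2 fold -1.06, SE 0.20, adjusted p = 0.0351). The list median was -0.75, 6 of 10 were lower at an unadjusted p under 0.05, and DESeq2 called 5. In the stromal thioredoxin system 1 of 9 fell, NTRC (log2 fold -1.04, SE 0.18, adjusted p = 0.0293), an NADPH-dependent reductase, and the list median was -0.65. There 5 of 9 were lower at an unadjusted p under 0.05, and DESeq2 called 5. In photorespiration, which recycles the product of Rubisco's oxygenase reaction, 3 of 13 fell. These were GLDT (log2 fold -1.54, SE 0.27, adjusted p = 0.0296), GDCH1 (log2 fold -0.98, SE 0.21, adjusted p = 0.0459) and GLDP2 (log2 fold -0.80, SE 0.18, adjusted p = 0.0466), all subunits of glycine decarboxylase. The median of the photorespiration list was -0.80, 9 of 13 were lower at an unadjusted p under 0.05, and DESeq2 called 8. Of 3 genes for export and carbon supply 0 passed, with the carbonic anhydrase gene CA1 at -2.85 (SE 0.79, adjusted p = 0.0733), and 2 were lower at an unadjusted p under 0.05 and by DESeq2. Of all tested genes 3.94% were called lower in this contrast, 15.1% were lower at an unadjusted p under 0.05, and DESeq2 called 10.2% lower. None of these lists had a gene that passed as higher, against 1.79% of genes, and their calls were not recomputed with libraries left out.

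The cytosolic and glycolytic counterparts did not pass in either direction, with 0 of 12 past the threshold and a median of -0.07. Of all tested genes 3.94% passed as lower and 1.79% as higher, shares that stand beside the other lists below as well. The 0 of 12 is near those shares and is no result about these genes. At an unadjusted p under 0.05, 3 were lower and 2 higher, and DESeq2 called 2 lower and 1 higher. Of all genes 15.1% were lower and 13.0% higher at that unadjusted p, and DESeq2 called 10.2% lower and 6.51% higher. GAPC1, the cytosolic counterpart of GAPA1, stood at 391, 368 and 421 CPM for WT, 847, 479 and 529.5 CPM for aba2-1, and 341, 517 and 545 CPM for p5cs1-4, in the order control, labelled stress and labelled release. It was highest in the control in aba2-1 and in labelled release in WT and p5cs1-4. FBA8, a cytosolic aldolase gene, stood at 299.7, 286 and 276 CPM for WT, 509.9, 288 and 313 CPM for aba2-1, and 265, 364 and 346 CPM for p5cs1-4. GAPA1 to GAPC1 in RPKM was 3.82, 3.25 and 1.67 for WT, 1.26, 1.35 and 1.34 for aba2-1 and 3.37, 1.62 and 0.908 for p5cs1-4. FBA2 to FBA8 was 11.0, 9.61 and 4.55 for WT, 3.59, 4.03 and 3.54 for aba2-1 and 9.74, 3.84 and 2.64 for p5cs1-4. The cytosolic fructose-bisphosphatase gene cyFBP was at -1.05 (SE 0.26, adjusted p = 0.0599), and HCEF1 to cyFBP in RPKM was 4.77, 5.24 and 5.31 for WT, 5.07, 2.67 and 3.56 for aba2-1 and 4.05, 2.71 and 4.18 for p5cs1-4, lowest in labelled stress in both mutants. Of 9 pentose phosphate genes 0 passed, with a median of 0.18. There 1 was lower and 4 higher at an unadjusted p under 0.05, and DESeq2 called 2 higher. Of 5 regulators of photosynthesis genes 0 passed, with a median of -0.42, and 2 were lower at an unadjusted p under 0.05 and by DESeq2. Of 7 treatment markers 1 passed, PRODH1 as lower (log2 fold -2.83, SE 0.22, adjusted p = 0.0095), and DESeq2 called 1 lower and 4 higher. Differences between lists were not tested.

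**Figure D4:**
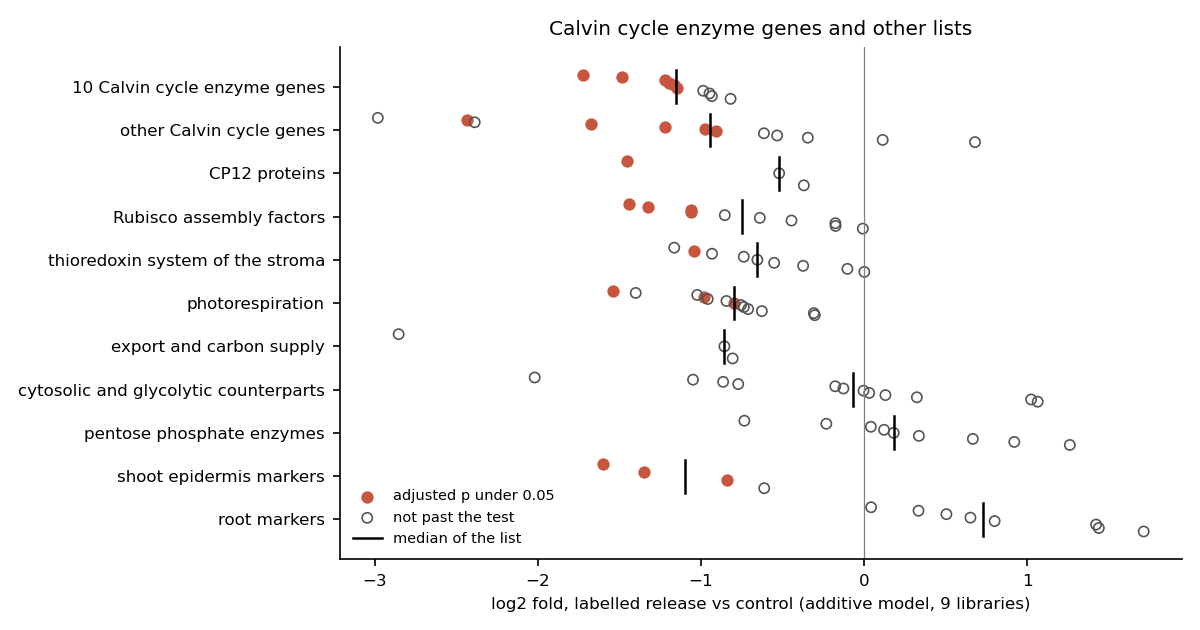
Log2 folds of labelled release against control from the additive model for the 10 genes and 10 of the other lists, with 1 point per tested gene, filled where the adjusted p was under 0.05, and a vertical bar at the list median. The median of the 10 genes is -1.16, that of the cytosolic and glycolytic counterparts -0.07 and that of the pentose phosphate enzymes 0.18.

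Markers of other tissues were measured beside these genes. The 4 shoot epidermis markers ATML1, PDF1, FDH and PDF2 summed to 926 to 1065 CPM in the controls, 739.8 to 1017 CPM in labelled stress and 451 to 505 CPM in labelled release. In labelled release against control 3 of 4 fell, against 3.94% of all tested genes, PDF1 by the largest amount (log2 fold -1.60, SE 0.17, adjusted p = 0.0141). The 10 root markers summed to 2206 to 3972, 3649 to 5189 and 2501 to 4052 CPM in the same order, ranges that overlap. These sums rest on a part of the list, since its median level was at most 6.34 CPM in any library. Only 4 of the 10 reached 1 CPM in the WT control. From control to labelled release the median level went from 0.93 to 2.76 CPM for WT and from 1.15 to 4.48 CPM for p5cs1-4. For aba2-1 it went the other way, from 2.51 to 1.75 CPM. Of the 10, 8 were tested with 0 passing and a median log2 fold of 0.73, where 1.79% of all tested genes passed as higher. Of the 8, 1 was higher at an unadjusted p under 0.05, against 13.0% of genes, and 0 by DESeq2, against 6.51%. In p5cs1-4, 4 of the 6 root markers past the floor of 5 CPM were at least 2-fold higher in labelled stress than in the control, with a median log2 ratio of 1.73 and against 4.03% of genes. In its labelled release the count was 3 of 5, with a median of 1.80 and against 8.40%, whereas 0 of the 1 or 2 past the floor were 2-fold higher in these contrasts in WT and aba2-1. The floor asks for 5 CPM in either library, so a marker low in the control can enter through the library where it is high. These counts therefore cannot be read as a result about the root markers. EXPA7, a root hair gene, was at 0 in the WT control. Of the 3 guard cell markers 0 passed. At an unadjusted p under 0.05, 2 were lower, against 15.1% of genes, and DESeq2 called 1, against 10.2%. The sum of the 3 went from 41.7 to 93.1 CPM in the controls to 20.5 to 49.3 CPM in labelled release. The 4 seed markers summed to at most 3.14 CPM in any library. Their part in the values of the 10 genes was not tested.

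Correlations across the 9 libraries were taken on the log2(CPM + 1) scale. Over the 45 pairs of members Pearson's r ran from 0.733 (PRK with FBA1) to 0.996 (RCA with GAPA2), with a median of 0.959. Against the mean pattern of the 10, which each member is itself part of, r was 0.997 for GAPB, 0.932 for PRK and 0.895 for FBA1, and 8 of 10 members were among the 50 genes most like it of 9719 with a mean of at least 20 CPM. The 5 other genes with a symbol that were most like it were LAX1 (r = 0.993), an auxin influx carrier gene, HEMA1 (0.990), a glutamyl-tRNA reductase gene of chlorophyll synthesis, Lhca5 (0.988), a photosystem I antenna gene, and PnsL1 (0.985) and PnsB4 (0.985), genes of the chloroplast NDH complex. These correlations describe 9 libraries that share pooling and scaling, and no test was made of them.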

How the data were processed

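Polyadenylated RNA of whole seedlings was sequenced in 9 libraries, 1 per genotype and treatment, after random priming and 18 cycles of PCR without molecular identifiers, per the labels' protocols. Per the file headers, each deposited table lists 33518 genes, giving for each an estimated count, a length, an RPKM value and the fraction of its reads that map to several places. Of the deposited estimated counts in a library, 92.3% to 95.4% were whole numbers within 1e-06. The deposited RPKM scale reads by gene length and library total, and the deposited fraction runs from 0 to 1. CASAVA 1.6 and TAIR10 are named in the submitters' processing notes. Which program aligned or counted reads, and whether strand was used, is not given in the sources used here.

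Estimated counts were rounded, and TMM factors scaled the levels, the comparisons of 2 libraries and the edgeR fits. The DESeq2 fits used median-of-ratios size factors, and the limma fits took log2(deposited RPKM + 1) without TMM factors. An additive model (treatment and genotype, 4 residual degrees of freedom) and an interaction model (2 residual degrees of freedom) were fitted to genes with a mean of at least 1 CPM with edgeR 4.0.16 (quasi-likelihood test, Benjamini-Hochberg adjusted p, threshold 0.05), limma 3.58.1 and DESeq2 1.42.0 in R 4.3.3. Their spread holds the interaction as well as noise, and no replicate of a group enters. The edgeR fits of both models were run on simulated counts with known answers, and the DESeq2 and limma fits were not. Comparisons of 2 libraries have no test. Their intervals are exact conditional 95% intervals, shares have exact Clopper-Pearson intervals, and both cover counting error only.

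The members, the 14 further lists and the interaction term were chosen with earlier results of these data known. Named genes are all members, the label checks, at most 4 genes of a list that passed with the largest fold, counterparts of members, and the 5 most alike genes with a symbol. PGK2 and the values of genes that did not pass in other lists were added after they were seen. Genes with over 0.2 of their reads shared are called uncertain. Gene names were matched to TAIR10.1 for 32709 genes. Protein identity had been planned, and coding sequence identity from the TAIR10.1 genome took its place. Upstream windows come from the same RefSeq assembly.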

Additional observations from a re-analysis of the deposited data

How the results depend on the processing

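No paired analysis was possible because each group is 1 pooled library and the labels give no replicate numbers. The 6 members called for labelled release against control remained a count of 6 with median-of-ratios factors, no filter on low counts, a mean of at least 10 CPM and reads that map to 1 place. The count was 10 with DESeq2 and without aba2-1, against 10.2% and 11.8% of genes called lower, and 2 (GAPA2 and SBPASE) with library totals or limma on RPKM, against 2.54% and 3.10%. It was 0 without WT, without p5cs1-4 or without labelled stress, where 0 genes of all tested were called in any direction. With each library left out in turn it ran from 0 to 10. For labelled release against labelled stress the count of 0 became 3 with DESeq2 and 5 without aba2-1, against 7.47% and 5.58% called lower, and ran from 0 to 5 with single libraries left out. For aba2-1 against WT it became 1 with DESeq2, against 1.46%. For the interaction in labelled release it became 1 with DESeq2 and 4 without labelled stress, against 2.07% and 7.17% called higher, and ran from 0 to 4 with single libraries left out. It could not be fitted without any 1 genotype, without the controls, without the aba2-1 control or without aba2-1 labelled release. The causes were not tested.

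With library totals or deposited RPKM the 2-fold counts became 0 for aba2-1 labelled release against control (3.51% and 3.80% of genes lower), 4 for aba2-1 against WT in labelled stress (4.03% and 4.44%) and 0 for p5cs1-4 against WT there (4.56% and 4.85%). With a 1.5-fold limit the counts, with the share of genes that far lower in brackets, became 10 for labelled release against control in WT (24.6%) and p5cs1-4 (21.3%) and 8 in aba2-1 (16.0%). For labelled stress against control they were 0 in WT (12.6%), 7 in aba2-1 (12.1%) and 8 in p5cs1-4 (14.3%), and for labelled release against labelled stress 9 (21.6%), 0 (14.4%) and 8 (14.7%). For aba2-1 against WT they were 7 in control (20.2%), 10 in labelled stress (16.8%) and 0 in labelled release (12.9%), and for p5cs1-4 against WT 0 (10.8%), 7 (16.9%) and 2 (6.55%). A pseudocount of 0.1, no floor and a floor of 20 CPM changed no count.

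Of the model folds, 1181 of the values under alternatives kept direction and side of the threshold, 67 lost a call, 41 gained one and 12 changed sign, none of these a called value. FBA1 in labelled release against labelled stress became 0.024 without p5cs1-4 and ran from -0.41 to 0.017 with single libraries left out, above 0 without p5cs1-4 labelled stress. PRK in p5cs1-4 against WT became 0.045 without labelled stress and ran from -0.49 to 0.058, above 0 without WT labelled stress. In the interaction for labelled stress, HCEF1 ran from -0.50 to 0.083 and FBA2 from -0.37 to 0.20, above 0 without WT control or WT labelled stress. SBPASE ran from -0.13 to 0.35 and TKL1 from -0.13 to 0.16, below 0 without p5cs1-4 control or p5cs1-4 labelled stress. Of the log2 ratios between 2 libraries, 761 moved within their counting interval, 289 moved beyond it and 0 of the 2-fold ones changed sign. Depth does not limit the members, which had at least 2128 reads in each library, and the lack of replicates does.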

Other observations

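FBA5, a cytosolic aldolase gene chosen after its values were seen, was 12.1-fold lower in the aba2-1 control than in the WT control. In the order control, labelled stress and labelled release it stood at 292, 223 and 24.9 CPM for WT, 24.2, 20.3 and 59.1 CPM for aba2-1, and 246, 21.5 and 16.1 CPM for p5cs1-4. It was high in both other libraries of WT and low in labelled release, and in p5cs1-4 it was high in the control alone. In the additive model it was at -2.02 (SE 1.27, adjusted p = 0.333) for labelled release against control. The glucose-6-phosphate dehydrogenase gene G6PD5, of the oxidative pentose phosphate pathway, stood at 18.9, 36.0 and 84.4 CPM for WT, 56.2, 54.7 and 69.1 CPM for aba2-1, and 41.2, 74.5 and 106 CPM for p5cs1-4. It was at 1.26 (SE 0.33, adjusted p = 0.0635) in the same contrast, with all 3 labelled release values above the 3 controls, as for 15.3% of tested genes. CA1, a plastid carbonic anhydrase gene, stood at 2634, 1954 and 192 CPM for WT, 755, 472 and 433 CPM for aba2-1, and 2536, 788 and 121 CPM for p5cs1-4, lowest in labelled release in each genotype.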
